A study of Homo sapiens with 24 samples.

Results

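The 41 genes described here encode proteins of the synaptic vesicle and of its release machinery. They were taken by symbol from a table of 60564 genes: SNAREs, complexins, UNC13 priming factors, synaptotagmins, synapsins, vesicle membrane proteins, RAB3 proteins, active zone scaffolds and endocytic proteins. Of these, 35 reached 1 FPKM in at least 3 libraries and could be tested, and 15903 genes of the whole table did so. The values come from RNA sequencing of 2 human neuroblastoma cell lines, SK-N-BE(2) and SH-SY5Y, in which the mitochondrial gene NDUFS6 had been knocked down or overexpressed. In each line, knockdown cells carried a lentiviral short hairpin RNA against NDUFS6 and were set against cells with the empty vector of that construct. Overexpressing cells carried the full-length NDUFS6 coding sequence and were set against cells with the empty vector of their own construct. All 8 groups, controls included, had been infected and kept under puromycin, and each group had 3 libraries. The labels give a knockdown title for SH-SY5Y that holds the number 1, and the sources used here do not state how many hairpins were used per line.

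In neurons and neuroendocrine cells, neurotransmitter or hormone is held in vesicles that dock at the plasma membrane and fuse when calcium enters. The SNARE proteins on vesicle and plasma membrane zip together to drive fusion, UNC13 proteins and complexins prepare and hold the complex, and synaptotagmins sense calcium. RAB3 proteins and their effectors bring vesicles to the release site, active zone scaffolds organise that site, synapsins hold vesicles in reserve, and dynamin and clathrin adaptors retrieve the membrane. Neuroblastoma arises from the sympathoadrenal lineage, and its cells commonly express parts of this machinery.

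NDUFS6 was read in every library as a check of the labels. It had 1.09, 1.61 and 1.299 FPKM in SK-N-BE(2) knockdown libraries, against 9.29, 12.2 and 11.9 in their empty vector libraries, and 3.11, 3.98 and 4.98 in SH-SY5Y knockdown libraries, against 11.2, 11.1 and 12.1 in theirs. Overexpressing libraries had 14.9, 17.8 and 19.0 FPKM in SK-N-BE(2), against 11.8, 13.9 and 12.7 in their empty vector, and 214, 211 and 199 in SH-SY5Y, against 10.2, 11.5 and 11.2 in theirs. The knockdown was thus 8.36-fold in SK-N-BE(2) and 2.85-fold in SH-SY5Y, and the overexpression 1.34-fold and 19.0-fold, so the size of the NDUFS6 change differed between the lines. FPKM is scaled to transcript length and library size. Differences below are on the scale log2(FPKM + 1), which understates the change of genes near or under 1 FPKM, while folds are ratios of mean FPKM. A gene was called where limma's two-sided p, adjusted by Benjamini-Hochberg over all 15903 tested genes, was under 0.05. The labels name the libraries of a group as biological replicates without saying whether they came from separate infections, so the p-values rest on a spread between libraries that could be technical. The number of reads is unknown, since the table holds no counts.

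Of the 35 tested genes, 19 stood at 1 FPKM or more in all 24 libraries. SYT5, SYT7, SYT13, SYT17, RIMS1 and RPH3A passed the filter only through SH-SY5Y libraries, RIMS1 through its overexpressing libraries alone, so a lower level of these 6 in SK-N-BE(2) is partly set by the filter. SYN3, SYT2, SYT6, SYT12, SV2B and AMPH did not pass. SYT12 had 0.897, 0.886 and 1.06 FPKM in SH-SY5Y knockdown libraries, against 0.346, 0.454 and 0.357 in their empty vector, and the other 5 stayed below 1 FPKM in every library. SYN1, SYT7, SYT17, RAB3D, RIMS2 and VAMP2 have exons in common with another annotated gene of their strand and count as uncertain where the authors' counting could split reads. Exons of SYN1 (ARAF), SYP, SYT1, SYT9, SYT13, RAB3A, RAB3D, STX1A, DNM1, SV2C, VAMP1, DOC2A and SYN2 also face an exon of a gene on the opposite strand. The libraries were strand-specific per the labels, but the sources used here do not state whether the counting used the strand.

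Under knockdown of NDUFS6, the release genes differed from their empty vector in unlike ways in the 2 lines. In SH-SY5Y knockdown cells, 28 of the 35 fell and 4 rose, with a median log2 difference of -0.87, while 29.6% of all tested genes fell and 26.3% rose (56% either way), with a median of -0.01. In SK-N-BE(2) knockdown cells, 17 rose and 8 fell, with a median of 0.14, against 27.4% and 28.3% of all tested genes (55.7% either way) and the same median of -0.01. Of the 35, 12 rose in SK-N-BE(2) and fell in SH-SY5Y, 8 fell in both lines, 3 rose in both lines and 0 fell in SK-N-BE(2) while rising in SH-SY5Y. The shares of all tested genes with each such pair of calls are not given here, so these joint counts have no background beside them. The difference between the lines' responses was itself tested: 28 genes responded higher in SK-N-BE(2) than in SH-SY5Y and 3 lower, 31 in all, against 29.5% and 26.3%, or 55.8% in all, of the tested genes. Among the 32 members whose mean over all libraries was at least 1 FPKM, 26 fell and 3 rose in SH-SY5Y knockdown, and 8 fell and 16 rose in SK-N-BE(2) knockdown. Fewer cells of a kind and less RNA per cell cannot be told apart in such bulk libraries.

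**Figure D1:**
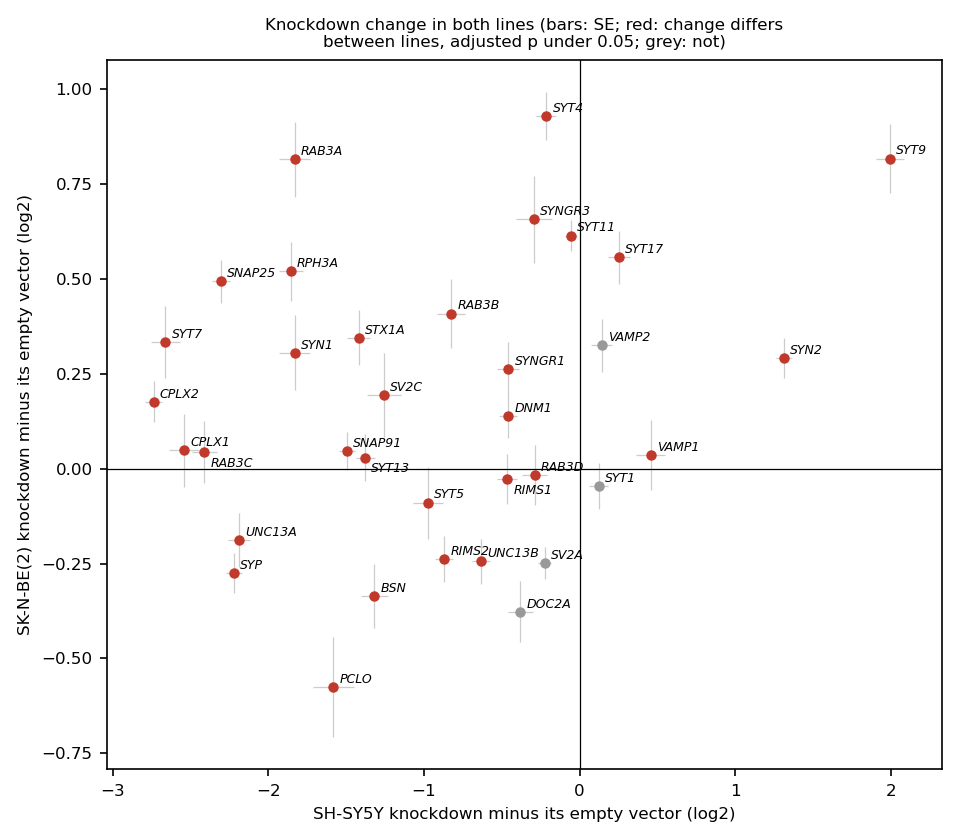
Each point is 1 of the 35 tested release genes, placed by its knockdown change in SH-SY5Y (x axis) and in SK-N-BE(2) (y axis), as log2(FPKM + 1) differences from the matching empty vector, with SE bars. Most points lie left of the vertical line and many of them above the horizontal line, SYT9 and SYN2 stand at the right, and the 4 grey points (VAMP2, SYT1, SV2A and DOC2A) are genes whose change was not called different between the lines.

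The control mattered for these counts, since each line has 2 empty vectors. Set against the line's other empty vector, SH-SY5Y knockdown had 29 genes lower and 5 higher, against 31.7% and 26.5% of all tested genes, and all 28 falls and 4 rises remained called in the same direction. In SK-N-BE(2), knockdown against the other empty vector had 7 genes lower and 10 higher, against 25.2% and 22.5% of all tested genes. Only 9 rises (CPLX2, DNM1, RAB3A, RPH3A, SNAP25, SYNGR3, SYT4, SYT7 and SYT11) and 3 falls (BSN, SV2A and UNC13B) were called the same way against both vectors of SK-N-BE(2). The 2 sets of comparisons share the knockdown libraries, so they are not independent. The shares of all tested genes called the same way against both vectors are not given here, so the counts called in both have no background.

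Markers of other cells and of the sympathoadrenal lineage were read in the same libraries. The 11 markers of adrenergic neuroblastoma cells were all tested and summed to between 675.5 and 707.2 FPKM in SH-SY5Y knockdown libraries, against 997.0 to 1009.0 in their empty vector. Of these 11, 6 fell and 3 rose in SH-SY5Y knockdown, where 29.6% and 26.3% of all tested genes did. DBH, which makes noradrenaline, fell to 23.1 ± 1.70 FPKM, against 129 ± 5.22, while ISL1, a lineage transcription factor, rose to 60.6 ± 1.74, against 35.4 ± 1.77. In SK-N-BE(2), the adrenergic markers summed to 556.6 to 702.2 FPKM in knockdown libraries, against 854.5 to 874.5. Of the 11, 8 were lower and 2 higher there, beside 28.3% and 27.4% of all tested genes. The 9 markers of stroma, of which 8 were tested, summed to 274.8 to 286.9 FPKM in SH-SY5Y knockdown libraries, against 141.3 to 146.6 in their empty vector and 63.55 to 66.95 in the overexpression empty vector. Of these 8, 7 rose and 1 fell in SH-SY5Y knockdown, and DCN, which encodes decorin, had 9.30 ± 0.489 against 0.226 ± 0.0174 FPKM. In SK-N-BE(2) knockdown, 2 of the 8 stroma markers rose and 2 fell, near the shares of all tested genes. Of 6 immune markers only CD68 was tested, at 10.1 ± 1.503 against 1.89 ± 0.371 FPKM in SH-SY5Y, and CD3E and LYZ stayed under 0.1 FPKM in both of these groups. CD68 and COL3A1 share exons with other annotated genes on their strand. Schwann cell markers rose in 2 of 4 tested and fell in 0 in SH-SY5Y knockdown, epithelial markers in 0 and 0 of 2, and endothelial markers in 0 and 1 of 2, and SOX10, PECAM1 and CDH5 stayed under 0.1 FPKM. The part of these shifts in the release gene results was not tested.

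The neuronal SNARE complex is built from SNAP25 and STX1A, the syntaxin of the plasma membrane, and VAMP2 or VAMP1 on the vesicle. Of these 4, SNAP25 and STX1A fell and VAMP1 rose in SH-SY5Y knockdown, whereas SNAP25, STX1A and VAMP2 rose in SK-N-BE(2) knockdown. SNAP25 had 5.29, 4.97 and 4.29 FPKM in SH-SY5Y knockdown libraries, against 27.5, 29.6 and 26.5 in their empty vector. Every knockdown library was below every control library, and the level was 5.74-fold lower (log2 difference -2.30, SE 0.057, adjusted p = 1.85e-17 by limma). In SK-N-BE(2), SNAP25 had 19.2, 20.4 and 17.7 FPKM in knockdown libraries, against 13.6, 12.9 and 13.2, again without overlap but 1.44-fold higher (log2 difference 0.49, SE 0.057, adjusted p = 3.28e-07 by limma). The SNAP25 responses differed by 2.80 on the log2 scale, with a 95% interval of 2.63 to 2.97 (limma adjusted p = 3.16e-16). Against the other empty vector, SNAP25 differed by -3.13 in SH-SY5Y knockdown and by 0.43 in SK-N-BE(2) knockdown.

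STX1A had 2.55, 1.96 and 2.53 FPKM in SH-SY5Y knockdown libraries, against 8.13, 7.71 and 7.94 in their empty vector. This 3.38-fold lower level left the groups apart (log2 difference -1.42, SE 0.073, adjusted p = 1.37e-12 by limma). In SK-N-BE(2), its 3.32, 2.78 and 2.96 FPKM under knockdown stood against 2.42, 2.07 and 2.01 (log2 difference 0.35, SE 0.073, adjusted p = 0.000428 by limma). Against the other empty vector of SK-N-BE(2), STX1A did not pass the test, and the log2 difference was 0.067 (adjusted p = 0.483). VAMP2 did not pass the test in SH-SY5Y knockdown, at 12.1, 14.0 and 13.0 FPKM against 12.0, 11.6 and 11.6 (log2 difference 0.14, 95% interval -0.0035 to 0.29, limma adjusted p = 0.0908). VAMP2 averaged 7.36 ± 0.347 FPKM in SK-N-BE(2) knockdown, against 5.67 ± 0.190 (SD, n = 3 each, log2 difference 0.33, SE 0.069, adjusted p = 0.000476 by limma), and it too was not called against the other vector (0.071). VAMP1 had 4.67, 4.82 and 4.90 FPKM in SH-SY5Y knockdown libraries, against 3.14, 3.28 and 3.26, a rise without overlap (log2 difference 0.46, SE 0.093, adjusted p = 0.000288 by limma). VAMP1 was at 1.31, 0.948 and 1.85 FPKM in SK-N-BE(2) knockdown, against 1.26, 1.25 and 1.34, and the knockdown libraries lay on both sides of the controls (log2 difference 0.035, limma adjusted p = 0.778).

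**Figure D2:**
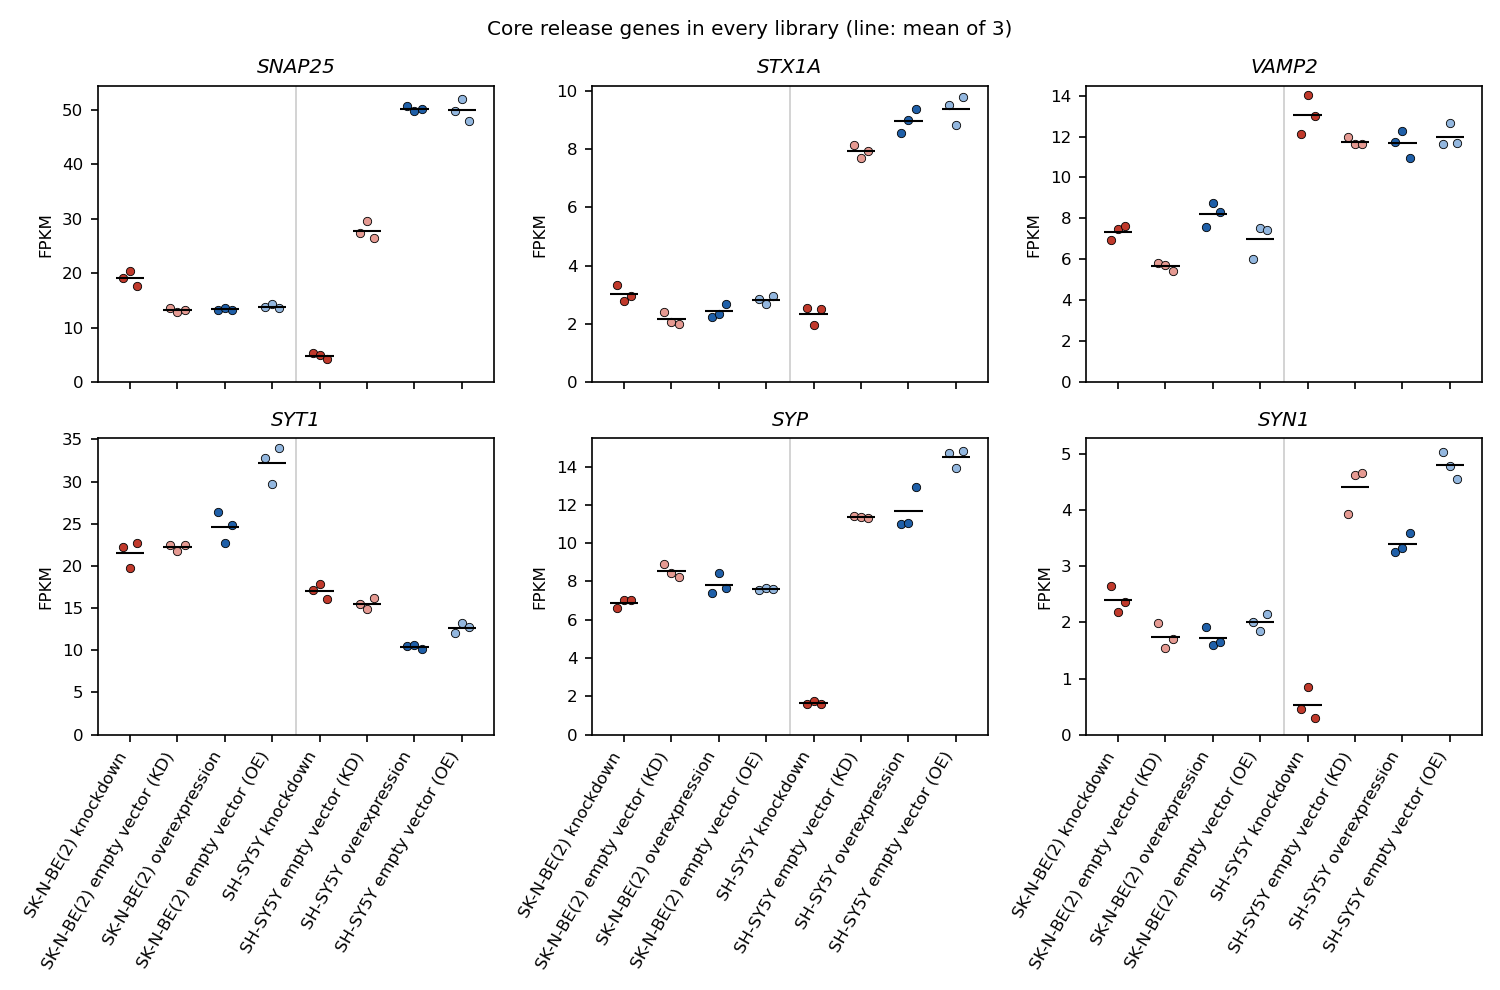
FPKM of SNAP25, STX1A, VAMP2, SYT1, SYP and SYN1 in each of the 24 libraries, with the 3 libraries of a group as points, their mean as a line and each construct left of its empty vector (KD, knockdown; OE, overexpression). SH-SY5Y knockdown libraries are the lowest of all groups for SNAP25, SYP and SYN1, while VAMP2 averaged 13.1 FPKM there.

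Complexins bind the assembled SNARE complex and regulate its firing, and UNC13 proteins open syntaxin so that vesicles become fusion-competent. All 4 of these genes fell in SH-SY5Y knockdown, where 29.6% of all tested genes did. CPLX2 had 1.53, 1.299 and 1.29 FPKM in SH-SY5Y knockdown libraries, against 14.6, 14.8 and 14.99 in their empty vector. With a 10.8-fold lower mean, its difference was the lowest on the log2 scale among the 35 genes (log2 difference -2.74, SE 0.054, adjusted p = 8.35e-19 by limma). CPLX1 had 1.05, 1.49 and 1.001 FPKM there, against 12.1, 11.4 and 11.4, a 9.84-fold lower mean (log2 difference -2.54, SE 0.10, adjusted p = 1.42e-14 by limma). UNC13A had 1.47, 1.46 and 1.14 FPKM, against 9.56, 10.1 and 9.54 (log2 difference -2.19, SE 0.071, adjusted p = 1.24e-15 by limma). For all 3 genes, every knockdown library lay far below every control library. UNC13B averaged 1.99 ± 0.0400 FPKM, against 3.63 ± 0.166, and fell less (log2 difference -0.63, SE 0.059, adjusted p = 1.61e-08 by limma).

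In SK-N-BE(2) knockdown, CPLX2 rose while UNC13A and UNC13B fell, all by small amounts. CPLX2 had 5.85, 5.43 and 5.01 FPKM, against 4.69, 4.51 and 4.85 (log2 difference 0.18, SE 0.054, adjusted p = 0.00917 by limma). The call was lost without knockdown replicate 1 (log2 difference 0.13), and against the other empty vector the difference was 0.43. UNC13B had 2.51, 2.11 and 2.36 FPKM, against 2.96, 2.97 and 2.88 (log2 difference -0.24, SE 0.059, adjusted p = 0.00165 by limma). UNC13A differed by -0.19, and leaving out knockdown replicate 2 (-0.12) or any 1 control replicate (-0.19 in each case) ended the call. CPLX1 averaged 4.33 ± 0.262 against 4.17 ± 0.673 FPKM with overlapping libraries (log2 difference 0.049, SE 0.10, adjusted p = 0.698 by limma). The response differed between the lines for all 4 genes, by 2.91 for CPLX2, 2.59 for CPLX1, 2.00 for UNC13A and 0.39 for UNC13B on the log2 scale.

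The synaptotagmins did not move as a block. SYT1 and SYT9 are fast calcium sensors of release, SYT7 is a slower sensor with high calcium affinity, SYT4 and SYT11 belong to those that do not bind calcium in the usual way, and DOC2A is a related calcium-binding protein. Of the 9 tested genes of this group, 5 fell (SYT7, SYT13, SYT5, SYT4 and DOC2A) and 2 rose (SYT9 and SYT17) in SH-SY5Y knockdown. Of all tested genes, 29.6% fell and 26.3% rose there. Under knockdown in SK-N-BE(2), 5 rose (SYT4, SYT9, SYT11, SYT17 and SYT7) and 1 fell (DOC2A), beside 27.4% and 28.3% of all tested genes.

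SYT7 had 0.923, 0.695 and 0.715 FPKM in SH-SY5Y knockdown libraries, against 10.2, 11.1 and 9.46 in their empty vector. Every knockdown library was under 1 FPKM, without overlap, a 13.2-fold lower mean (log2 difference -2.66, SE 0.094, adjusted p = 5.16e-15 by limma). In SK-N-BE(2), SYT7 stayed under 1 FPKM in all libraries, with 0.545, 0.537 and 0.898 FPKM under knockdown, against 0.231, 0.370 and 0.333 (log2 difference 0.33, SE 0.094, adjusted p = 0.0051 by limma). Its difference in response between the lines, 2.997 on the log2 scale (95% interval 2.72 to 3.28), was the highest of the 35 genes. SYT7 passed the filter only through SH-SY5Y libraries and had little room to fall in SK-N-BE(2). That difference is thus partly set by the filter and the scale, and is given as a description, with no test.

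SYT9 went the other way. It had 10.3, 9.36 and 9.30 FPKM in SH-SY5Y knockdown libraries, against 1.96, 1.45 and 1.62 in their empty vector. No knockdown library came near the controls, and the mean was 5.75-fold higher (log2 difference 1.99, SE 0.091, adjusted p = 2.36e-13 by limma). SYT9 in SK-N-BE(2) knockdown libraries had 9.37, 7.99 and 10.0 FPKM, against 5.11, 4.40 and 4.70 (log2 difference 0.82, SE 0.091, adjusted p = 2.09e-07 by limma). The other empty vector of that line had 10.4, 9.88 and 9.98 FPKM, and against it the difference turned to -0.13 (adjusted p = 0.243), so the direction in SK-N-BE(2) depends on the control. In SH-SY5Y, the difference from the other empty vector was 2.45.

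SYT1 was called in neither line under knockdown. It had 17.1, 17.9 and 16.0 FPKM in SH-SY5Y knockdown libraries, against 15.4, 14.9 and 16.2 (log2 difference 0.12, 95% interval -0.0045 to 0.25, limma adjusted p = 0.0944). In SK-N-BE(2), its 22.2, 19.7 and 22.7 FPKM stood against 22.4, 21.8 and 22.5 (log2 difference -0.045, 95% interval -0.17 to 0.083, limma adjusted p = 0.561). The groups overlapped in both lines, but against the other empty vectors SYT1 was called, at 0.39 in SH-SY5Y and -0.56 in SK-N-BE(2). SYT4 had the highest FPKM of the 35 genes in SH-SY5Y, at 75.5, 71.5 and 82.3 FPKM under knockdown, against 84.7, 90.2 and 91.5 (log2 difference -0.21, SE 0.063, adjusted p = 0.0069 by limma). Knockdown libraries of SK-N-BE(2) had 9.15, 8.65 and 8.85 FPKM of SYT4, against 3.90, 4.49 and 4.19, without overlap and 2.12-fold higher (log2 difference 0.93, SE 0.063, adjusted p = 1.75e-10 by limma). SYT11, linked to vesicle trafficking in neurons, had 51.2, 46.0 and 48.2 FPKM in SK-N-BE(2) knockdown libraries, against 31.4, 31.4 and 31.1 (log2 difference 0.61, SE 0.04, adjusted p = 8.05e-11 by limma). In SH-SY5Y, SYT11 was 46.8, 47.7 and 48.4 FPKM under knockdown, against 49.3, 49.1 and 50.5, and was not called (log2 difference -0.057, SE 0.04, adjusted p = 0.238 by limma), although the difference from the other empty vector was -0.50 and was called. SYT17 had 1.61, 1.92 and 1.81 FPKM in SH-SY5Y knockdown libraries, against 1.52, 1.13 and 1.36 (log2 difference 0.25, SE 0.07, adjusted p = 0.00431 by limma). Its rise in SK-N-BE(2), at 0.629 ± 0.0301 against 0.108 ± 0.0436 FPKM, turned to -0.073 against the other vector. SYT13 fell 4.78-fold and SYT5 5.28-fold in SH-SY5Y knockdown, to means under 1 FPKM, and both were uncalled and under 1 FPKM in SK-N-BE(2) knockdown. DOC2A had 1.18, 1.5 and 1.24 FPKM in SK-N-BE(2) knockdown libraries, against 2.10, 2.06 and 1.82 (log2 difference -0.38, SE 0.08, adjusted p = 0.000479 by limma), and 0.597, 0.606 and 0.716 in SH-SY5Y, against 1.16, 1.20 and 1.05 (log2 difference -0.38, SE 0.08, adjusted p = 0.000413 by limma). The fall of DOC2A in SK-N-BE(2) became 0.035 against the other vector.

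Among the proteins that sit in the vesicle membrane, SYP (synaptophysin, the classical vesicle marker), SV2A and SV2C (transporter-like vesicle proteins) and SYNGR1 and SYNGR3 (synaptogyrins) were tested. All 5 fell in SH-SY5Y knockdown, where 29.6% of all tested genes did. In SK-N-BE(2) knockdown, SYP and SV2A fell and both synaptogyrins rose, beside 28.3% and 27.4% of all tested genes. SYP had 1.61, 1.74 and 1.61 FPKM in SH-SY5Y knockdown libraries, against 11.4, 11.4 and 11.3 in their empty vector. That was 6.87-fold lower, with little spread inside either group (log2 difference -2.22, SE 0.053, adjusted p = 1.18e-17 by limma). In SK-N-BE(2), SYP had 6.59, 7.004 and 7.01 FPKM under knockdown, against 8.90, 8.45 and 8.21 (log2 difference -0.28, SE 0.053, adjusted p = 0.000178 by limma). This smaller fall was -0.13 and uncalled against the other vector (adjusted p = 0.0526), and the response differed between the lines by 1.95 on the log2 scale. SV2C had 3.06, 2.98 and 2.35 FPKM in SH-SY5Y knockdown libraries, against 8.12, 7.90 and 8.11 (log2 difference -1.26, SE 0.11, adjusted p = 5.75e-09 by limma). SV2A had 16.8, 17.8 and 17.4 FPKM, against 20.4, 19.9 and 20.9, and fell by a similar small amount in both lines, -0.22 in SH-SY5Y and -0.25 in SK-N-BE(2). The difference between these SV2A responses was -0.023, with a 95% interval of -0.15 to 0.10. SYNGR1 fell by 1.56-fold in SH-SY5Y knockdown, and its rise in SK-N-BE(2) knockdown (0.26) became -0.024 against the other vector (adjusted p = 0.812, limma). The fall of SYNGR3 in SH-SY5Y knockdown, -0.29 on the log2 scale, was lost without knockdown replicate 1 (-0.20) or control replicates 1 (-0.23) or 3 (-0.31) of that line. SYNGR3 had 1.15, 0.641 and 0.550 FPKM in SK-N-BE(2) knockdown libraries, against 0.109, 0.176 and 0.0676 (log2 difference 0.66, SE 0.12, adjusted p = 6.52e-05 by limma).

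Synapsins coat the vesicle and tie it to the reserve pool. SYN1 had 0.453, 0.854 and 0.302 FPKM in SH-SY5Y knockdown libraries, against 3.94, 4.63 and 4.67 in their empty vector. The knockdown libraries were all under 1 FPKM, with an 8.22-fold lower mean (log2 difference -1.83, SE 0.10, adjusted p = 3.33e-12 by limma). In SK-N-BE(2), SYN1 had 2.64, 2.18 and 2.36 FPKM, against 1.99, 1.55 and 1.70, and rose (log2 difference 0.31, SE 0.10, adjusted p = 0.0126 by limma). That call was lost without knockdown replicate 1 or control replicate 2, with a log2 difference of 0.25 in each case, and against the other empty vector, at 0.18 (adjusted p = 0.153, limma). SYN2, its paralog, had 5.86, 6.42 and 5.49 FPKM in SH-SY5Y knockdown libraries, against 1.79, 1.78 and 1.78. Here the direction was opposite to that of SYN1, with a 3.33-fold higher mean (log2 difference 1.31, SE 0.054, adjusted p = 4.34e-14 by limma). SYN2 under knockdown in SK-N-BE(2), at 8.18, 9.56 and 9.17 FPKM, lay between its 2 empty vectors, 7.40, 7.14 and 6.86 for the knockdown construct and 18.8, 19.2 and 18.9 for the overexpression construct. It was called higher than its own control (0.29) and lower than the other (-1.004), so no direction holds for SYN2 in SK-N-BE(2) knockdown.

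The promoters of the release genes were searched for a site of REST, the repressor that keeps neuronal genes silent outside neurons, and for the cAMP response element, since both are well described in neuronal gene promoters. RefSeq promoter windows on GRCh38.p14, from 250 bases before to 50 after the start, were present for 31 of the 41 genes. The REST site core was taken as AGCACC followed after 2 bases of any kind by GGACAG, and the cAMP element as TGACGTCA, on both strands, and the motifs do not overlap. The REST core was found for 2 of the 31 genes, SYN1 and RPH3A, and in 20 of 35116 promoters of the table (0.057%), which belong to 18 genes. A gene can have more than 1 promoter, so counts of genes and of promoters are not the same measure. The cAMP element was found for SYN1 only, and in 649 promoters (1.85%) of 614 genes. The windows of SYN1 and RPH3A are shown because they held a match. Both genes fell in SH-SY5Y knockdown and were called higher in SK-N-BE(2) knockdown against its own vector, RPH3A also against the other vector and SYN1 not. Of the 35 tested genes, 12 had this same pair of calls, SYN1 and RPH3A among them. Of those 12, SNAP25, SYT7 and SYNGR3 had no promoter window to search. Any link between a match and the calls was not tested. Capitals mark the matches. In SYN1 (chrX:47619808-47620107, minus strand, 5′ to 3′ along the gene), the REST core begins at -230 and the cAMP element at -159 from the start. In RPH3A (chr12:112791498-112791797, plus strand), the core lies on the opposite strand, so the capitals are its reverse complement, from -196. Another RPH3A window (chr12:112791288-112791587), not shown, holds the same site from position 15, after its start, so the position depends on the start taken.
SYN1: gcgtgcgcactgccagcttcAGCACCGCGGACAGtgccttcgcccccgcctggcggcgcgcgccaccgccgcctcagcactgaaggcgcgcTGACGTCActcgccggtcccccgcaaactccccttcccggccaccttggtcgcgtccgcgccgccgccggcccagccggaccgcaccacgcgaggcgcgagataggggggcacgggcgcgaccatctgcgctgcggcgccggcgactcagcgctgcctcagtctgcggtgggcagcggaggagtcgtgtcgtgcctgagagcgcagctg
RPH3A: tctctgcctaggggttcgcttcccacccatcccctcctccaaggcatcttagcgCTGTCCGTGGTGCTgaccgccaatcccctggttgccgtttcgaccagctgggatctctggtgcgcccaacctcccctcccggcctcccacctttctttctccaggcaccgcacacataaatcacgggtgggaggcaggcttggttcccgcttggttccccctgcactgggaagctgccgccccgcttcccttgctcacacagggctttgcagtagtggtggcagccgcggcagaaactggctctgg
A match describes letters in a window and is not evidence of binding. REST itself had 11.6 ± 0.464 FPKM in SH-SY5Y knockdown, against 8.34 ± 0.183 (log2 difference 0.43, SE 0.078, adjusted p = 9.52e-05 by limma), and 4.82 ± 0.687 FPKM in SK-N-BE(2) knockdown, against 3.12 ± 0.112 (log2 difference 0.49, SE 0.078, adjusted p = 2.02e-05 by limma).

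RAB3 proteins are small GTPases of the vesicle, and RPH3A (rabphilin) is an effector that binds them. All 5 of these genes fell in SH-SY5Y knockdown, where 29.6% of all tested genes did. RAB3A, RAB3B and RPH3A rose in SK-N-BE(2) knockdown, where 27.4% of all tested genes did. RAB3C had 0.548, 0.788 and 0.543 FPKM in SH-SY5Y knockdown libraries, against 7.69, 7.92 and 7.29 in their empty vector. It was 12.2-fold lower, with all knockdown libraries under 1 FPKM (log2 difference -2.41, SE 0.081, adjusted p = 2.28e-15 by limma). RAB3A, the main neuronal form, had 4.29, 5.12 and 5.20 FPKM, against 17.3, 21.2 and 21.3 (log2 difference -1.83, SE 0.10, adjusted p = 2.99e-12 by limma). In SK-N-BE(2), RAB3A had 13.5, 18.1 and 15.3 FPKM under knockdown, against 8.57, 8.45 and 8.10, 1.86-fold higher and without overlap (log2 difference 0.82, SE 0.10, adjusted p = 6.30e-07 by limma). The rise of RAB3A was about as large against the other vector, 0.79, and the lines differed in response by 2.65. RPH3A had 1.26, 1.21 and 0.792 FPKM in SH-SY5Y knockdown libraries, against 6.13, 6.93 and 6.53 (log2 difference -1.86, SE 0.078, adjusted p = 6.11e-14 by limma). In SK-N-BE(2), RPH3A stayed under 1 FPKM, at 0.612, 0.720 and 0.822 under knockdown, against 0.124, 0.233 and 0.237 (log2 difference 0.52, SE 0.078, adjusted p = 9.85e-06 by limma). RAB3B fell 2.24-fold in SH-SY5Y knockdown, and its rise in SK-N-BE(2), 0.41, became -0.14 against the other vector. RAB3D fell by 1.27-fold in SH-SY5Y and differed by -0.017 in SK-N-BE(2), uncalled.

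All 4 active zone scaffolds fell in SH-SY5Y knockdown, and 3 of them fell in SK-N-BE(2) knockdown, beside 29.6% and 28.3% of all tested genes. The grouping was made after the values were seen. BSN (bassoon) and PCLO (piccolo) are giant proteins that organise the release site, and RIMS1 and RIMS2 tether RAB3, UNC13 and calcium channels there. PCLO had 0.807, 0.708 and 0.640 FPKM in SH-SY5Y knockdown libraries, against 4.22, 4.23 and 3.98 (log2 difference -1.58, SE 0.13, adjusted p = 2.36e-09 by limma). BSN had 0.671, 0.772 and 0.562 FPKM, against 3.15, 3.33 and 2.99 (log2 difference -1.32, SE 0.084, adjusted p = 4.24e-11 by limma). All knockdown libraries were under 1 FPKM for both genes. RIMS2 averaged 0.228 ± 0.00580 FPKM, against 1.25 ± 0.123, and RIMS1 0.127 ± 0.0336, against 0.558 ± 0.118, and both fell (-0.87 and -0.47 on the log2 scale). In SK-N-BE(2), PCLO had 1.48, 1.19 and 1.57 FPKM under knockdown, against 2.63, 2.39 and 2.75 (log2 difference -0.58, SE 0.13, adjusted p = 0.000899 by limma). BSN had 0.804, 0.661 and 0.936 FPKM, against 1.31, 1.21 and 1.28 (log2 difference -0.34, SE 0.084, adjusted p = 0.00202 by limma). These groups were apart for both genes, but against the other empty vector only BSN stayed called, at -0.56, while PCLO was at -0.15. RIMS2 fell in SK-N-BE(2) knockdown (-0.24), which became 0.036 against the other vector, and RIMS1, under 0.2 FPKM in that line, was not called. The falls were larger in SH-SY5Y than in SK-N-BE(2) by 0.98 for BSN, 1.01 for PCLO and 0.63 for RIMS2 (limma, all called). RIMS1 differed by 0.44, but it passed the filter only through SH-SY5Y overexpressing libraries and had little room to fall in SK-N-BE(2). Its difference is thus partly set by the filter and the scale, and is given as a description, with no test.

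For vesicle retrieval, DNM1 (dynamin, which pinches off the endocytic bud) and SNAP91 (the neuronal clathrin adaptor AP180) were tested. SNAP91 had 1.56, 1.38 and 1.25 FPKM in SH-SY5Y knockdown libraries, against 5.81, 5.58 and 5.84 (log2 difference -1.496, SE 0.051, adjusted p = 2.41e-15 by limma). DNM1 had 7.82, 8.22 and 7.89 FPKM, against 11.2, 11.9 and 10.97 (log2 difference -0.46, SE 0.058, adjusted p = 1e-06 by limma). Neither gene's groups overlapped. In SK-N-BE(2) knockdown, SNAP91 was not called, at 10.8 ± 0.403 against 10.4 ± 0.466 FPKM. DNM1 differed there by 0.14 with overlapping libraries, just under the threshold (limma adjusted p = 0.0499), and leaving out knockdown replicate 1 or 3 or control replicate 1 or 3 ended the call (0.11 to 0.13).

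Fewer of these genes were called under overexpression of NDUFS6 than under its knockdown. The 2 empty vectors of a line differed from each other in 34.5% of all tested genes in SK-N-BE(2) and 36.2% in SH-SY5Y. The part of NDUFS6 in the calls under overexpression was not tested. In SH-SY5Y overexpressing cells, 21 of the 35 fell and 1 was called higher, RIMS1, which passed the filter only through those cells, with a median log2 difference of -0.24, while 17.2% of all tested genes fell and 15.4% rose (32.6% either way). In SK-N-BE(2), 7 rose and 6 fell, with a median of -0.02, against 12.9% and 16.8% of all tested genes (29.7% either way). Responses differed between the lines for 19 genes, 18 higher in SK-N-BE(2) and 1 lower, against 18.3% and 18.5% of all tested genes (36.8% either way). Against the other empty vector of the line, SH-SY5Y overexpression had 18 genes lower and 8 higher (28.9% and 26.5% of all tested genes), with 16 falls called in both. SK-N-BE(2) overexpression against the other vector had 5 lower and 13 higher (20% and 20.3% of all tested genes), with 3 falls (BSN, PCLO and UNC13A) and 5 rises (CPLX2, RPH3A, SYT4, SYT13 and VAMP2) called in both. Of these 8, PCLO, whose libraries overlapped, lost its call without overexpression replicate 2 (-0.36), UNC13A without any 1 of 4 single libraries (-0.14 to -0.17), and SYT13 and VAMP2 as given below. The shares of all tested genes called in both are not given here. Fitted with only the groups compared, 4 rises and 1 fall of SK-N-BE(2) overexpression were called. Over all 15903 tested genes, that fit called 543 rises and 423 falls, beside 2046 and 2670 in the fit of 8 groups. With 1 library left out at a time, the falls in SK-N-BE(2) overexpression numbered between 2 and 6, the 2 being without overexpression replicate 2.

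**Figure D3:**
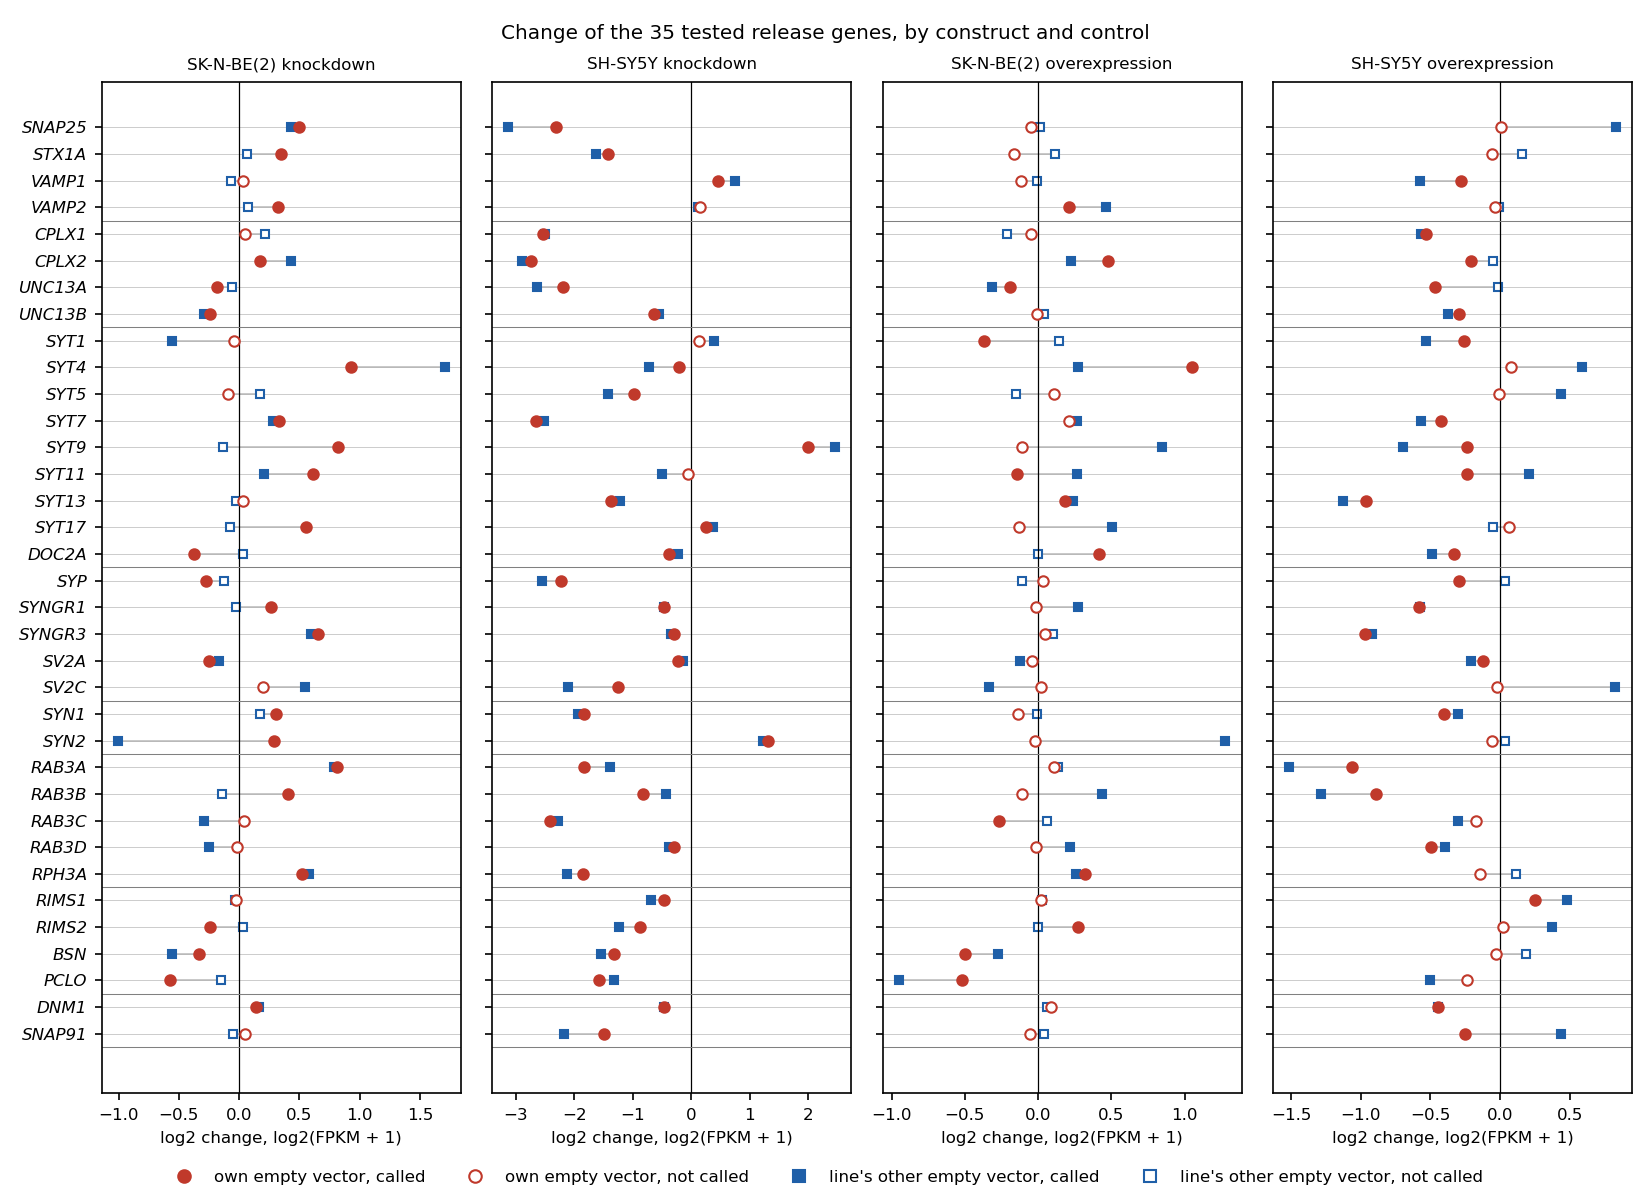
Log2(FPKM + 1) differences of the 35 tested release genes for the knockdown and the overexpression in each line, against the construct's own empty vector (circles) and the line's other empty vector (squares), filled where called. In SH-SY5Y knockdown both markers lie left of 0 for the 28 genes that fell, while in SK-N-BE(2) knockdown SYN2 has its markers on opposite sides of 0.

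In SH-SY5Y overexpression, the largest falls were in RAB3A, SYNGR3, SYT13 and RAB3B. RAB3A had 5.76, 7.23 and 5.96 FPKM in overexpressing libraries, against 13.2, 15.4 and 14.3 in their empty vector (log2 difference -1.07, SE 0.10, adjusted p = 1.17e-07 by limma). SYNGR3 had 1.19, 1.16 and 0.941 FPKM, against 3.51, 2.73 and 3.12 (log2 difference -0.97, SE 0.12, adjusted p = 2.39e-06 by limma). SYT13 had 1.02, 1.06 and 1.09 FPKM, against 3.12, 2.73 and 3.21 (log2 difference -0.97, SE 0.062, adjusted p = 9.21e-10 by limma). In each of the 3 the overexpressing libraries were all below the controls, by 2.26-fold, 2.84-fold and 2.86-fold. RAB3B had 0.879, 1.04 and 0.868 FPKM, against 2.83, 2.49 and 2.43 (log2 difference -0.89, SE 0.091, adjusted p = 4.14e-07 by limma). RIMS1 had 1.25, 1.15 and 1.11 FPKM in overexpressing libraries, against 0.694, 0.907 and 0.874. It entered the test only because these overexpressing libraries passed 1 FPKM, so the higher level is a description, with no test. CPLX1, UNC13A, DNM1 and SYN1 fell 1.503-fold, 1.43-fold, 1.41-fold and 1.42-fold, although UNC13A differed by -0.013 from the other empty vector. SNAP25, which fell under knockdown, was 50.7, 49.8 and 50.1 FPKM in overexpressing libraries, against 49.9, 52.0 and 47.9, and was not called (95% interval of the log2 difference -0.11 to 0.13, limma adjusted p = 0.935). SYP fell to 11.7 ± 1.08 FPKM, against 14.5 ± 0.495 (log2 difference -0.29, SE 0.053, adjusted p = 0.000259 by limma), but was at 0.031 against the other empty vector. SNAP91 and SYT11 were called in opposite directions against the 2 vectors, -0.25 and 0.43 for SNAP91 and -0.24 and 0.20 for SYT11.

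In SK-N-BE(2) overexpression, SYT4 had the largest rise on the log2(FPKM + 1) scale, while by ratio of means SYT13 (3.27-fold) and RPH3A (2.95-fold), both under 1 FPKM, were further apart. It had 5.93, 5.17 and 4.78 FPKM in overexpressing libraries, against 2.28, 1.83 and 2.01 in their empty vector (log2 difference 1.05, SE 0.063, adjusted p = 9.61e-10 by limma). The mean was 2.59-fold higher, without overlap, and against the other vector the log2 difference was 0.27. CPLX2 had 5.48, 5.59 and 5.90 FPKM, against 3.85, 3.79 and 3.70 (log2 difference 0.48, SE 0.054, adjusted p = 4.24e-06 by limma), and DOC2A 1.90, 2.16 and 1.92, against 1.10, 1.19 and 1.47 (log2 difference 0.41, SE 0.08, adjusted p = 0.000891 by limma). RIMS2 (0.27), RPH3A (0.32) and SYT13 (0.18) rose by less at low levels, and the call of SYT13 was lost without any 1 of 5 libraries (0.16 to 0.19). DOC2A was not called against the other vector (0.0016). VAMP2 rose slightly, at 7.56, 8.74 and 8.30 FPKM against 5.996, 7.53 and 7.42 (log2 difference 0.21, SE 0.069, adjusted p = 0.0285 by limma), and the call was lost without overexpression replicate 2 (0.17) or 3 (0.20) or control replicate 1 (0.12). BSN fell, at 1.15, 0.693 and 0.815 FPKM against 1.84, 1.36 and 1.77 (log2 difference -0.50, SE 0.084, adjusted p = 0.000262 by limma). SYT1 had 26.4, 22.7 and 24.9 FPKM, against 32.8, 29.7 and 33.9 (log2 difference -0.37, SE 0.061, adjusted p = 0.000223 by limma), and was at 0.14 against the other vector. RAB3C (-0.27) and SYT11 (-0.14) fell by less, and both calls were lost without overexpression replicate 2 (-0.19 for RAB3C and -0.10 for SYT11), that of RAB3C also without overexpression replicate 3 (-0.26) or control replicate 1 (-0.20), with 0.063 and 0.27 against the other vector. SNAP25, STX1A, SYP and SYN1 were not called, with 95% intervals of the log2 difference, not adjusted for the number of genes, of -0.17 to 0.067, -0.31 to -0.01, -0.076 to 0.15 and -0.35 to 0.067. The responses to overexpression differed between the lines by 1.17 for RAB3A, 1.15 for SYT13, 1.02 for SYNGR3 and -0.47 for BSN on the log2 scale (SK-N-BE(2) minus SH-SY5Y). SYT13 passed the filter only through SH-SY5Y libraries, so its difference is partly set by the filter.

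The empty vectors of a line differed from each other in these genes. In SK-N-BE(2), the knockdown vector had 8 of the 35 genes higher and 12 lower than the overexpression vector, while 15.5% and 19% of all tested genes were so called (34.5% either way). Scaling to a fixed sum (TPM) gave 5 and 14, and it also changed the counts over all 15903 tested genes, to 1563 higher and 4666 lower. SYN2 had 7.40, 7.14 and 6.86 FPKM in the knockdown vector, against 18.8, 19.2 and 18.9 in the overexpression vector (log2 difference -1.296, SE 0.054, adjusted p = 4.41e-13 by limma). SYT9 had 5.11, 4.40 and 4.70 FPKM, against 10.4, 9.88 and 9.98 (log2 difference -0.95, SE 0.091, adjusted p = 9.44e-08 by limma), and SYT1 22.4, 21.8 and 22.5, against 32.8, 29.7 and 33.9 (log2 difference -0.51, SE 0.061, adjusted p = 1.88e-06 by limma). These 3 genes had no overlap between the vectors. SYT4 was higher in the knockdown vector, 3.90, 4.49 and 4.19 FPKM against 2.28, 1.83 and 2.01 (log2 difference 0.77, SE 0.063, adjusted p = 1.21e-08 by limma), as were DOC2A (0.41) and PCLO (0.43), the last of which lost its call without overexpression vector replicate 2 (0.27) or knockdown vector replicate 3 (0.40). In SH-SY5Y, 6 genes were higher and 14 lower in the knockdown vector, against 18.4% and 17.8% of all tested genes (36.2% either way). SNAP25 had 27.5, 29.6 and 26.5 FPKM in the knockdown vector, against 49.9, 52.0 and 47.9 (log2 difference -0.82, SE 0.057, adjusted p = 7.20e-10 by limma). SV2C was -0.85 and SNAP91 -0.68 on the log2 scale. RAB3A (0.45), RAB3B (0.39) and SYT9 (0.46) were higher in the knockdown vector of SH-SY5Y. The SNAP25 gap between the vectors, 1.79-fold, was smaller than the 5.74-fold gap between SH-SY5Y knockdown and its own vector.

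Control cells of the 2 lines differed in all 35 genes. Averaged over both empty vectors, 6 genes were higher in SK-N-BE(2) than in SH-SY5Y and 29 lower, against 33.5% and 43.8% of all tested genes (77.3% either way), with a median log2 difference of -0.82 for the 35 genes and -0.08 for all. SYT5, SYT7, SYT13, SYT17, RIMS1 and RPH3A are among the 29 and passed the filter only through SH-SY5Y libraries. Among the 17 members whose mean over all libraries was at least 5 FPKM, which leave these out, 4 were higher and 13 lower. SYT4 had 4.20 ± 0.291 and 2.04 ± 0.231 FPKM in the SK-N-BE(2) vectors, against 88.8 ± 3.60 and 127 ± 1.31 in the SH-SY5Y vectors (log2 difference -4.75, SE 0.045, adjusted p = 8.22e-25 by limma). SYT7 had 0.311 ± 0.0720 and 0.367 ± 0.152 FPKM, against 10.3 ± 0.811 and 9.18 ± 0.592 (log2 difference -3.001, SE 0.067). RPH3A had 0.198 ± 0.0640 and 0.147 ± 0.0559 FPKM, against 6.53 ± 0.398 and 8.01 ± 0.164 (log2 difference -2.81, SE 0.055). Since SYT7 and RPH3A entered the test only through SH-SY5Y libraries, their lower level in SK-N-BE(2) is a description, with no test. SYT4, SYT7 and RPH3A were near absent or low in SK-N-BE(2) and well expressed in SH-SY5Y. SYN2 was higher in SK-N-BE(2), with 7.13 ± 0.268 and 19.0 ± 0.194 FPKM, against 1.78 ± 0.00522 and 1.97 ± 0.0574 (log2 difference 2.15, SE 0.038, adjusted p = 9.83e-21 by limma), and so were SYT9 (1.81), SYT1 (0.88), SYNGR1 (0.58), SNAP91 (0.47) and DOC2A (0.36). Among the SNAREs, SNAP25 was -1.40, STX1A -1.47, VAMP2 -0.82 and VAMP1 -0.69, all lower in SK-N-BE(2). SYT9 and SYN2, the members with the largest rises in SH-SY5Y knockdown, reached 9.64 and 5.92 FPKM there. The SK-N-BE(2) knockdown vector had 4.74 and 7.13 FPKM of them, and the SK-N-BE(2) overexpression vector 10.1 and 19.0.

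**Figure D4:**
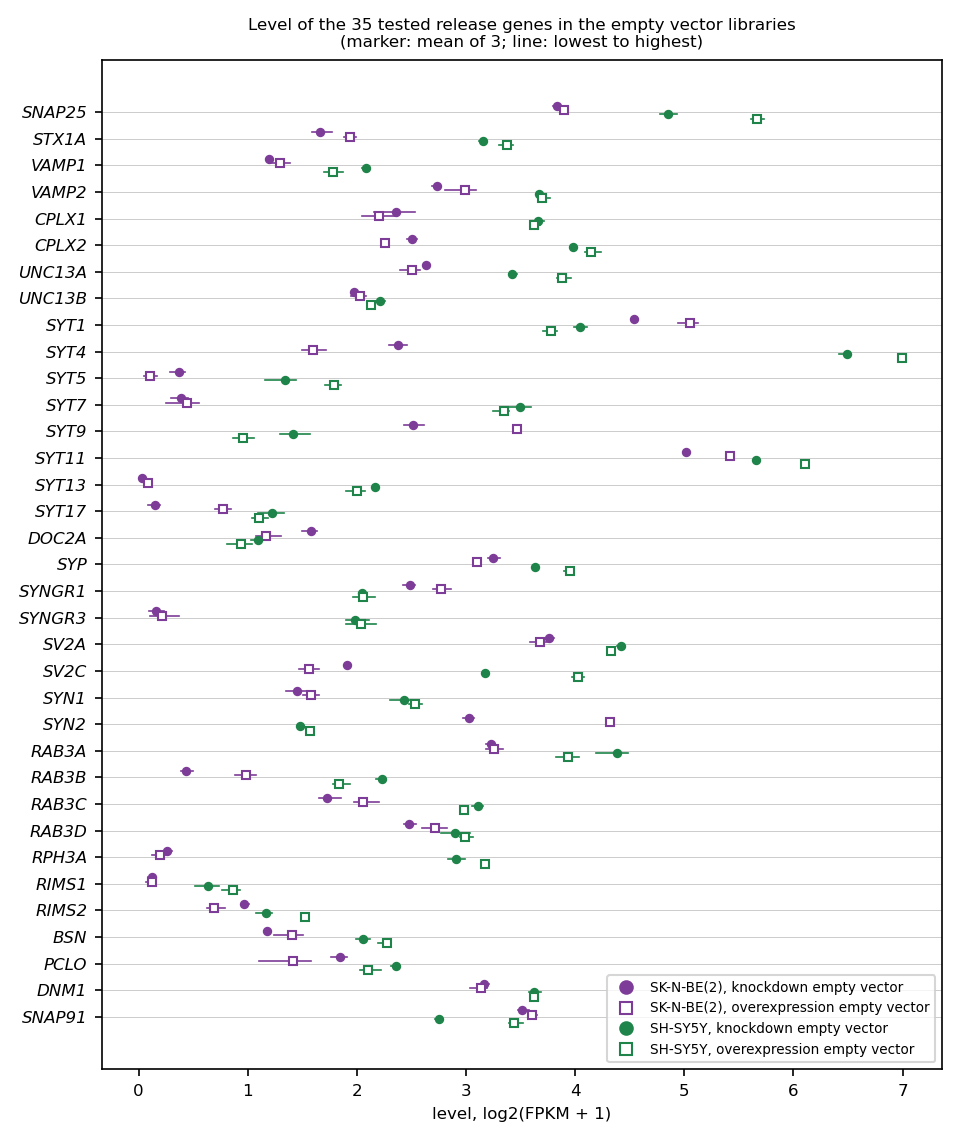
Level of the 35 tested release genes in the empty vector libraries, on the scale log2(FPKM + 1) (marker, mean of 3 libraries; line, lowest to highest), with SK-N-BE(2) and SH-SY5Y in different colours and the 2 vectors of a line as circles and squares. SYT4 spans the widest gap, with 2.04 FPKM in the SK-N-BE(2) overexpression vector and 127 FPKM in that of SH-SY5Y.

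Ordered by level over the 8 groups, SNAP25 was highest in SH-SY5Y overexpressing cells (50.2 ± 0.470 FPKM) and their vector (49.9 ± 2.05), which overlapped, then in the SH-SY5Y knockdown vector (27.8 ± 1.61), then in SK-N-BE(2) knockdown (19.1 ± 1.36). The 3 other SK-N-BE(2) groups averaged 13.9, 13.4 and 13.2 FPKM with neighbours that overlapped, and SH-SY5Y knockdown was lowest at 4.85 ± 0.513, apart from the rest. STX1A followed the same split, with 9.38, 8.98 and 7.93 FPKM in the 3 other SH-SY5Y groups and 2.35 in SH-SY5Y knockdown. SH-SY5Y knockdown libraries overlapped SK-N-BE(2) overexpressing cells (2.43) and the SK-N-BE(2) knockdown vector (2.17) and lay below the other SK-N-BE(2) groups (3.02 and 2.84). For VAMP2 the 4 SH-SY5Y groups, 11.7 to 13.1 FPKM, overlapped their neighbours and stood above the 4 SK-N-BE(2) groups, 5.67 to 8.20. The lines stood in the opposite order for SYT1, with 32.2 FPKM in the SK-N-BE(2) overexpression vector down to 10.4 in SH-SY5Y overexpressing cells.

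Further genes of the pathway were read as lists. The shares of all tested genes to set beside their counts are 29.6% lower and 26.3% higher in SH-SY5Y knockdown, 28.3% and 27.4% in SK-N-BE(2) knockdown, 16.8% and 12.9% in SK-N-BE(2) overexpression, and 17.2% and 15.4% in SH-SY5Y overexpression. Of 22 tested further SNAREs and SNARE regulators (26 listed), 7 fell and 5 rose in SH-SY5Y knockdown, near those shares, and 8 fell and 10 rose in SK-N-BE(2) knockdown. SNAP23, the SNAP25 relative found in most cells, had 9.25 ± 0.141 FPKM in SH-SY5Y knockdown, against 3.79 ± 0.325 (log2 difference 1.10, SE 0.049, adjusted p = 1.95e-13 by limma). This was opposite in direction to SNAP25. NAPB, a neuronal form of SNAP that recycles SNAREs, had 3.35 ± 0.164 FPKM, against 10.7 ± 0.477 (log2 difference -1.42, SE 0.06, adjusted p = 6.73e-14 by limma), while in SK-N-BE(2) it had 7.35 ± 0.183, against 4.52 ± 0.219 (log2 difference 0.60, SE 0.06, adjusted p = 4.87e-08 by limma). VAMP3, a VAMP of general secretion, had 8.80 ± 0.253 FPKM in SK-N-BE(2) knockdown, against 21.8 ± 0.228 (log2 difference -1.22, SE 0.044, adjusted p = 1.37e-14 by limma). In overexpressing cells, 3 fell and 3 rose in SK-N-BE(2), and 8 fell and 1 rose in SH-SY5Y.

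Beside 29.6% lower and 26.3% higher among all tested genes in SH-SY5Y knockdown, and 28.3% and 27.4% in SK-N-BE(2) knockdown, the next lists gave these counts. Under overexpression, the shares of all tested genes were 16.8% lower and 12.9% higher in SK-N-BE(2), and 17.2% and 15.4% in SH-SY5Y. Of 19 tested other vesicle membrane proteins (26 listed), 11 fell and 5 rose in SH-SY5Y knockdown, and 3 fell and 8 rose in SK-N-BE(2) knockdown. SVOP, a transporter-like vesicle protein, had 0.221 ± 0.0332 FPKM in SH-SY5Y knockdown, against 2.82 ± 0.183 (log2 difference -1.65, SE 0.064, adjusted p = 2.09e-14 by limma). SYPL1, the synaptophysin relative of non-neuronal cells, had 22.2 ± 1.49 FPKM in SH-SY5Y knockdown, against 11.8 ± 0.173 (log2 difference 0.86, SE 0.057, adjusted p = 7.74e-11 by limma). Under overexpression, 2 fell and 4 rose in SK-N-BE(2), and 6 fell and 1 rose in SH-SY5Y. Of 22 tested genes of the active zone and presynaptic calcium channels (28 listed), 11 fell and 4 rose in SH-SY5Y knockdown, and 5 fell and 5 rose in SK-N-BE(2) knockdown, not above the shares of all genes there. CACNA1B, the pore of the N-type calcium channel that triggers release, had 0.521 ± 0.0961 FPKM in SH-SY5Y knockdown, against 4.11 ± 0.292 (log2 difference -1.75, SE 0.065, adjusted p = 1.06e-14 by limma). RIMS4 fell there (-1.78) and rose in SK-N-BE(2) knockdown (0.93), and CACNA2D1, an auxiliary channel subunit, had 22.2 ± 1.51 FPKM in SH-SY5Y knockdown, against 7.93 ± 0.562 (log2 difference 1.37, SE 0.074, adjusted p = 3.46e-12 by limma). In overexpressing cells, 8 of these genes fell and 4 rose in SK-N-BE(2), and 8 fell and 3 rose in SH-SY5Y.

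The remaining lists stand beside the same shares of all tested genes, 29.6% lower and 26.3% higher in SH-SY5Y knockdown and 28.3% and 27.4% in SK-N-BE(2) knockdown. For overexpression these shares are 16.8% lower and 12.9% higher in SK-N-BE(2), and 17.2% and 15.4% in SH-SY5Y. Of 23 tested endocytosis and recycling genes (26 listed), 11 fell and 5 rose in SH-SY5Y knockdown, and 7 fell and 12 rose in SK-N-BE(2) knockdown, with 4 and 7 under overexpression in SK-N-BE(2) and 10 and 0 in SH-SY5Y. PICALM, the clathrin adaptor of most cells and the relative of SNAP91, rose in both lines, at 52.4 ± 2.04 against 33.2 ± 0.882 FPKM in SH-SY5Y knockdown (log2 difference 0.64, SE 0.045, adjusted p = 1.79e-10 by limma). Of 16 tested vesicular transporters and proton pump subunits (21 listed), 7 fell and 5 rose in SH-SY5Y knockdown, and 1 fell and 12 rose in SK-N-BE(2) knockdown, with 1 and 2 under overexpression in SK-N-BE(2) and 4 and 1 in SH-SY5Y. SLC18A1, a vesicular monoamine transporter of chromaffin cells, had 1.09 ± 0.258 FPKM in SH-SY5Y knockdown, against 5.54 ± 0.119 (log2 difference -1.65, SE 0.10, adjusted p = 9.61e-12 by limma), and 2.25 ± 0.109 in SK-N-BE(2) overexpression, against 0.515 ± 0.114 (log2 difference 1.10, SE 0.10, adjusted p = 1.50e-07 by limma). Of 25 tested postsynaptic and adhesion genes (30 listed), 14 fell and 6 rose in SH-SY5Y knockdown, and 3 fell and 10 rose in SK-N-BE(2) knockdown, with 4 and 7 under overexpression in SK-N-BE(2) and 13 and 1 in SH-SY5Y. NRXN2, a presynaptic adhesion protein, had 0.653 ± 0.124 FPKM in SH-SY5Y knockdown, against 4.60 ± 0.166 (log2 difference -1.76, SE 0.067, adjusted p = 1.42e-14 by limma). Of 15 neuronal repressor and splicing regulators, all tested, 7 fell and 5 rose in SH-SY5Y knockdown, and 5 fell and 6 rose in SK-N-BE(2) knockdown, with 4 and 3 under overexpression in SK-N-BE(2) and 3 and 3 in SH-SY5Y. SRRM4, a neuronal splicing factor, had 0.453 ± 0.0751 FPKM in SH-SY5Y knockdown, against 3.58 ± 0.0605 (log2 difference -1.66, SE 0.087, adjusted p = 2.22e-12 by limma). CTDSP1, a phosphatase that acts with REST, rose in SH-SY5Y knockdown (0.79) and fell in SK-N-BE(2) knockdown (-1.29).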

How the data were processed

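Strand-specific RNA libraries of 24 cultures were sequenced on an Illumina NovaSeq instrument as 1 batch, per the labels. Per the submitters' processing notes, the authors used FastQC 0.11.2, STAR and StringTie 1.3.1c with hg38, and deposited 1 table of FPKM per gene, which is normalized to transcript length and library size. The sources used here do not state the annotation release or the counting settings. Libraries summed to 249708 to 276091 FPKM, with 12607 to 14018 genes at 1 FPKM. Read counts are not in the table, so no interval for counting error is given.

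Genes at 1 FPKM or more in at least 3 libraries were tested on log2(FPKM + 1) with limma 3.58.1 (R 4.3.3; trend and robust), 1 fit over 8 groups of 3 with 16 residual degrees of freedom, after a check on simulated data. Pseudocount, filter, scaling (TPM, median of ratios), the groups fitted, the control vector and single libraries were varied, and a replicate block was tried. Same-numbered libraries did not deviate together in all pairs of any comparison (r from -0.076 to 0.37), so the numbers were not taken as pairs. The members and the gene lists were chosen with earlier results of these data known, and the grouping by role was made after the values were seen. Genes were named by rule: the 4 largest called, non-overlapping rises and falls per construct comparison whose higher group reached 1 FPKM, 3 for the other comparisons, 6 core genes throughout, and up to 2 per direction of each further list by smallest adjusted p. Other members named beside them were chosen after their values were seen. Gene positions and exon overlaps come from GENCODE release 29, and promoters from RefSeq on GRCh38.p14. Some genes that this rule names are not reported here.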

Additional observations from a re-analysis of the deposited data

Results flagged for a closer look

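Of the genes named by rule, 10 are given again because the response to a construct differed between the lines by the interaction term of the limma fit (SK-N-BE(2) minus SH-SY5Y, log2 scale). For knockdown, SYT7 differed by 2.997, CPLX2 by 2.91 and SNAP25 by 2.80. SYT9 differed by -1.18, SYN2 by -1.02 and VAMP1 by -0.42, so their response was lower in SK-N-BE(2). For overexpression, RAB3A differed by 1.17, SYT13 by 1.15 and SYNGR3 by 1.02, and BSN by -0.47. SYT7 and SYT13 passed the filter only through SH-SY5Y libraries and were under 1 FPKM in all SK-N-BE(2) libraries. The differences of SYT7 and SYT13 are thus descriptions, partly set by the filter. NDUFS6 itself was changed by unequal amounts in the 2 lines, and its part in these differences was not tested. The SK-N-BE(2) sides of SYT9 and SYN2 under knockdown changed sign against the other empty vector of that line.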

How the results depend on the processing

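Of 1628 values recomputed for 120 called log2 changes (all those of the 4 construct comparisons and the named ones of the others), 1518 kept their call, 97 lost it and 13 changed sign. All 13 changed sign against the line's other empty vector: in SK-N-BE(2) knockdown DOC2A (0.035), RAB3B (-0.14), RIMS2 (0.036), SYN2 (-1.004), SYNGR1 (-0.024), SYT17 (-0.073) and SYT9 (-0.13), in SK-N-BE(2) overexpression RAB3C (0.063), SYT1 (0.14) and SYT11 (0.27), and in SH-SY5Y overexpression SNAP91 (0.43), SYP (0.031) and SYT11 (0.20). With that control, 10 members were higher in SK-N-BE(2) knockdown, 13 in SK-N-BE(2) overexpression and 8 in SH-SY5Y overexpression. Fitting only the groups compared gave 4 higher and 1 lower in SK-N-BE(2) overexpression, where the calls over all tested genes went from 2046 higher and 2670 lower to 543 and 423. A pseudocount of 0.1 gave 0 higher in SH-SY5Y overexpression and 9 lower in the SH-SY5Y knockdown vector, no filter gave 2 higher in SH-SY5Y overexpression and 5 responding lower to knockdown in SK-N-BE(2), and TPM gave 5 higher in the SK-N-BE(2) knockdown vector. The causes were not tested. TPM also moved the median of all genes, to -0.10 in SH-SY5Y knockdown, -0.11 between the SK-N-BE(2) vectors, 0.20 for knockdown between lines and -0.12 between lines. With 1 library left out, higher and lower counts ran over 14 to 18 and 7 to 8 in SK-N-BE(2) knockdown, 4 to 5 and 27 to 28 in SH-SY5Y knockdown, 5 to 7 and 2 to 6 in SK-N-BE(2) overexpression, and 1 to 1 and 18 to 20 in SH-SY5Y overexpression. They ran over 5 to 7 (5 without overexpression vector replicate 2) and 10 to 11 between the SK-N-BE(2) vectors, 5 to 5 and 10 to 13 between the SH-SY5Y vectors, 27 to 28 and 3 to 3 for knockdown between lines, 16 to 18 and 1 to 2 for overexpression between lines (2 without SK-N-BE(2) overexpression replicate 1, its vector's replicate 2 or SH-SY5Y vector replicate 2), and 6 to 6 and 29 to 29 between lines. A replicate block gave 16 higher and 8 lower in SK-N-BE(2) knockdown, where DNM1 (0.14) lost its call, and changed no other call of the 120. Without read counts, the precision of members under 1 FPKM is unknown.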
